A study of Saccharomyces cerevisiae with 4 samples.

Results

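The amino acid permeases of the yeast plasma membrane bring amino acids into the cell. The genes described here were AGP1, GAP1, GNP1, BAP2, BAP3, TAT1, TAT2, CAN1, HIP1 and DIP5. They were chosen by name, as probe sets whose platform annotation gives 1 of these symbols alone, and they make up 10 of the 5656 genes that the annotation names singly. Each of the 10 was read by 1 probe set, and no probe set listed a permease together with another gene. The RNA came from 4 samples of Saccharomyces cerevisiae ATCC 4126, of which 2 had grown in YP medium with galactose (galactose B and galactose C) and 2 in YP medium with glucose (glucose A and glucose B). YP is a rich medium of yeast extract and peptone, so amino acids and peptides were supplied in both media. Cells were taken in all cases when the culture had reached an optical density of 1.0, and each total RNA went onto 1 Affymetrix yeast array. The labels give neither a genotype beyond the strain nor a culture for each letter, so each p-value rests on a spread between arrays of 1 medium that may be technical.

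As background, these permeases are related proteins that carry amino acids across the membrane together with protons. Most of their genes are switched on when an external amino acid is sensed by the SPS complex of Ssy1, Ptr3 and Ssy5, which releases the transcription factors Stp1 and Stp2 by cleaving them. The gene of the general permease, GAP1, is instead held down while a preferred nitrogen source is present, a control called nitrogen catabolite repression that acts through Ure2 and the GATA factors Gln3 and Gat1. After synthesis, the kinase Npr1 keeps some permeases at the membrane, and the ubiquitin ligase Rsp5 with its adaptors removes permeases from it.

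The array medians lay between 108 and 117, and precision is limited by there being 4 arrays. The labels of the media were borne out by GAL1, GAL2, GAL7 and GAL10, the galactose transport and breakdown genes, which were all higher in galactose by 6.97 or more on the log2 scale (limma, adjusted p from 0.00192 to 0.00207). The galactose arrays differed from each other more often than the glucose arrays did. Galactose C and galactose B were at least 2-fold apart at 12.7% of the 7302 probe sets tested, and glucose B and glucose A at 4.29%. Set against their glucose mean on the log2 scale, 10 ribosome biogenesis genes had a median of -0.40 on galactose B and of -1.68 on galactose C, and 10 stress genes had medians of 0.04 and 1.32.

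The comparison of the media asks how transcript levels depend on which of these sugars the cells grew on. Most permeases stood slightly lower in galactose. For 7 of the 10 (70%) both galactose arrays lay below both glucose arrays, while 0 lay above and 3 overlapped. In the 7 the mean log2 values differed by 1.13-fold to 1.58-fold. The nearest arrays of the 2 media were 1.04-fold (CAN1) to 1.35-fold (HIP1) apart. In bulk RNA, a transcript made by fewer cells and less of it in each cell cannot be told apart. Over all probe sets tested, both galactose arrays lay below both glucose arrays at 22.1% and above them at 17%; with 1 probe set per gene these shares were 23.4% and 15%. The median log2 difference was -0.26 over the permeases and -0.01 over all probe sets. No single permease passed the test across all probe sets (limma, adjusted p from 0.592 to 0.987), in which 0.835% of probe sets passed, and 0 of the 10 had an unadjusted p under 0.05, where 8.61% of all probe sets did. An exact permutation test over 2 arrays against 2 cannot go below a two-sided p of 0.333. The 7 were the carriers of branched-chain, aromatic, basic and acidic amino acids. The 3 that overlapped were the broad-range permeases GAP1 and AGP1 and the glutamine permease GNP1. The substrate ranges are not a clean divide, since BAP3 among the 7 has a broad range as well. In 6 of the 7 the fold between the media was larger than the fold between arrays of the same medium, and the exception was BAP2. This follows in part from picking genes whose arrays do not overlap. The share over all probe sets was not computed.

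**Figure D1:**
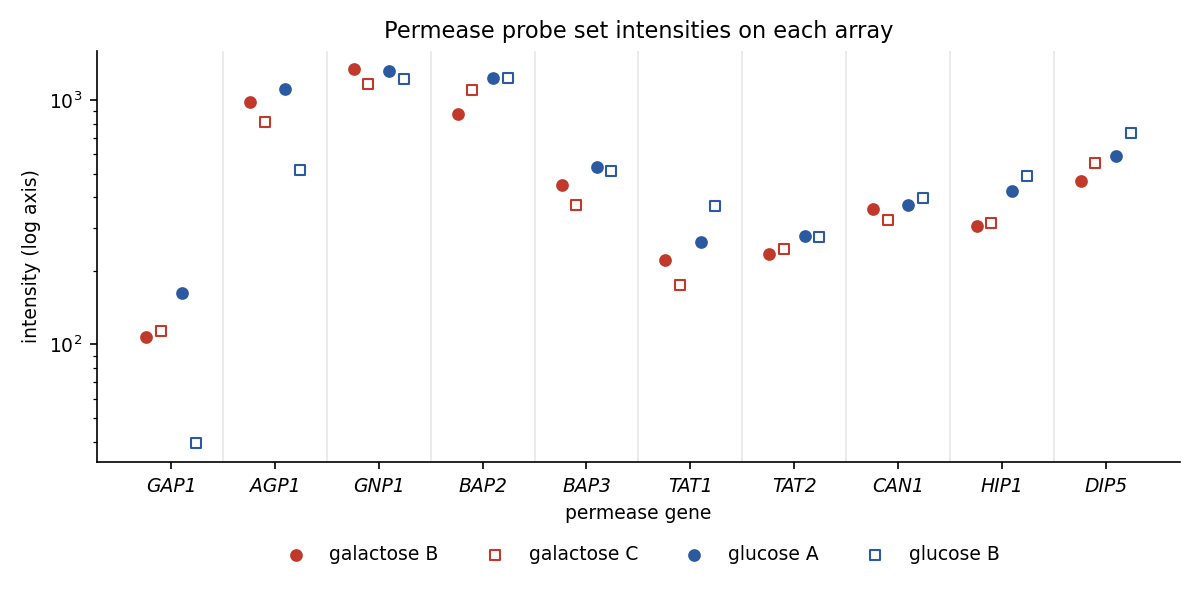
Intensity of each permease probe set (log axis) on galactose B and C (red) and glucose A and B (blue), with genes along the horizontal axis. In 7 genes both red points lie below both blue points, while glucose B is the lowest array for GAP1 and AGP1; heights of different genes are not comparable, since each probe set has its own brightness.

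The largest difference among the permeases was that of TAT1 (YBR069C), which carries tyrosine, tryptophan and branched-chain amino acids. Its intensity was 221 and 175 on galactose B and C, against 263 and 369 on glucose A and B. The lowest glucose array thus lay 1.19-fold above the highest galactose array. TAT1 averaged 198 ± 32.8 in galactose and 316 ± 75.0 in glucose (SD, n = 2 per medium here and below), 1.58-fold lower in galactose (log2 -0.66, SE 0.31; limma, adjusted p = 0.617). Its neighbour on the chromosome in the RefSeq gene table of assembly R64 is BAP2 (YBR068C), a permease of leucine, isoleucine and valine. BAP2 stood at 882 and 1104 on galactose B and C, against 1236 and 1229 on glucose A and B. Here the galactose arrays differed by 1.25-fold and the media by 1.25-fold as well (log2 -0.32, SE 0.23; limma, adjusted p = 0.751).

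BAP3 (YDR046C), a second branched-chain permease with a broad range, stood at 450 and 371 in galactose, against 535 and 516 in glucose. That is 1.28-fold lower in galactose, with the glucose arrays 1.04-fold apart (log2 -0.36, SE 0.24; limma, adjusted p = 0.734). TAT2 (YOL020W), the high-affinity tryptophan permease, showed the tightest values of the set. It stood at 235 and 245 in galactose, against 277 and 275 in glucose, so that arrays of 1 medium differed by at most 1.04-fold and the media by 1.15-fold (log2 -0.20, SE 0.24; limma, adjusted p = 0.835). All 4 carriers of branched-chain and aromatic amino acids were apart in the same direction, with a median log2 difference of -0.34.

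HIP1 (YGR191W), the histidine permease, had the widest gap between the media. Its intensity was 305 and 314 on galactose B and C, against 425 and 490 on glucose A and B, and its lowest glucose array lay 1.35-fold above its highest galactose array. The means were 310 ± 6.15 in galactose and 457 ± 45.6 in glucose, 1.47-fold lower in galactose (log2 -0.56, SE 0.24; limma, adjusted p = 0.592, the lowest of the set). CAN1 (YEL063C), the arginine permease through which the toxic analogue canavanine enters, stood at 358 and 325 in galactose, against 371 and 398 in glucose. Its groups did not overlap, but the nearest arrays were only 1.04-fold apart (log2 -0.17, SE 0.23; limma, adjusted p = 0.862). DIP5 (YPL265W), the permease of glutamate and aspartate, stood at 469 and 551 in galactose, against 593 and 734 in glucose (1.30-fold lower in galactose, log2 -0.38, SE 0.25; limma, adjusted p = 0.734).

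GAP1 (YKR039W), the general amino acid permease, differed between the glucose arrays and hardly between the galactose arrays. It stood at 107 and 113 on galactose B and C, against 162 and 39.4 on glucose A and B. Both galactose arrays thus lay inside the range of the glucose arrays, and the log2 difference of 0.47 had an SE of 0.70 (limma, adjusted p = 0.876). AGP1 (YCL025C), a broad-range permease of asparagine, glutamine and other amino acids, also had both galactose arrays between the glucose arrays. It stood at 988 and 818 in galactose, against 1112 and 519 in glucose (log2 0.24, SE 0.42; limma, adjusted p = 0.898). In both genes the direction between the media depended on which glucose array was used: without glucose B the log2 difference was -0.55 for GAP1 and -0.31 for AGP1, and without glucose A it was 1.49 and 0.79. GNP1 (YDR508C), the high-affinity glutamine permease, stood at 1337 and 1166 in galactose, against 1312 and 1219 in glucose. The media differed here by less than the galactose arrays did (log2 -0.02, SE 0.22; limma, adjusted p = 0.987).

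The intervals show which sizes of difference each gene's own arrays leave possible. They are not adjusted for the 7302 probe sets tested, so they do not give the size that the adjusted test could miss. The 95% interval of the limma fit included 0 for each of the 10 permeases. On the log2 scale it ran from -1.18 to 0.06 for HIP1 and from -1.46 to 0.14 for TAT1. For GNP1, the permease with the smallest difference, it ran from -0.59 to 0.55. For GAP1 it was the widest, from 2.58-fold lower to 4.93-fold higher in galactose.

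**Figure D2:**
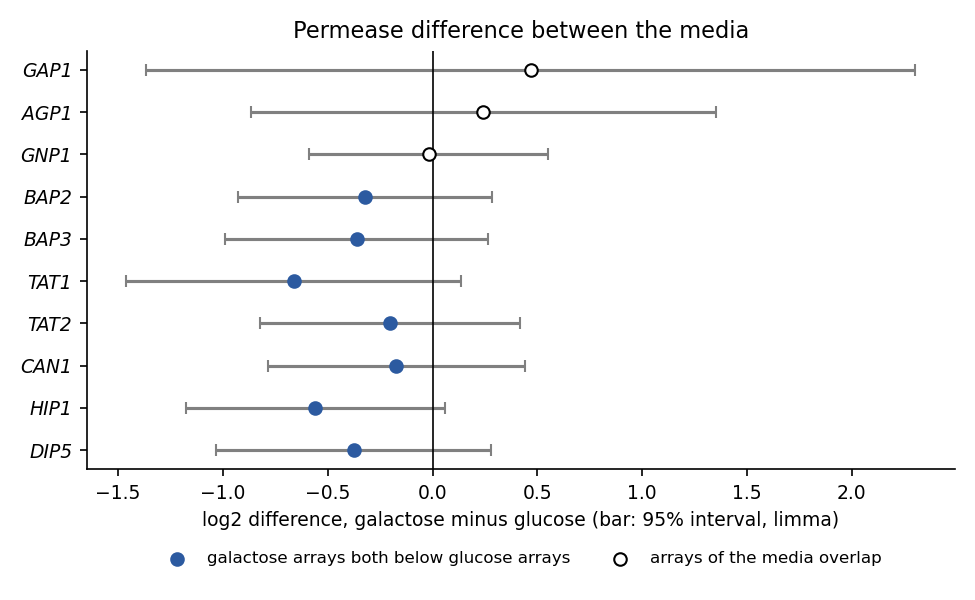
Log2 difference of each permease, galactose minus glucose, with the 95% interval of the limma fit; filled points mark genes whose galactose arrays both lay below both glucose arrays. The 7 filled points lie between -0.66 and -0.17 and every interval crosses 0; the widest interval is that of GAP1.

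Inside galactose the permeases differed little between the arrays. The galactose arrays differed by 1.03-fold (HIP1) to 1.26-fold (TAT1), and 0 of 10 permeases reached 2-fold, where 12.7% of all probe sets did. Galactose C was the lower array for 5 of them and the higher for 5. The permeases had a median of -0.23 on galactose B and of -0.21 on galactose C, each against the glucose mean on the log2 scale. The median of galactose C minus galactose B was -0.05 over the permeases and -0.02 over all probe sets, where rises and falls cancel. Taken without sign, the difference had a median of 0.38 over all probe sets. The permeases ranged from -0.34 (TAT1) to 0.32 (BAP2).

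Inside glucose the set was split. GAP1 was 4.11-fold lower in glucose B than in glucose A, and AGP1 2.14-fold lower, while the other 8 permeases differed by at most 1.40-fold (TAT1, higher in glucose B). Glucose B lay at least 2-fold below glucose A at 3.27% of all probe sets tested. This is a difference between single arrays with no replicate check. Among 10 stress genes, 9 were also lower in glucose B than in glucose A (median log2 difference -0.36), and 2 of the 10 were at least 2-fold apart. The stress genes were higher on galactose C than on galactose B by a median of 1.08 on the log2 scale, while GAP1 differed there by 0.08 and AGP1 by -0.27. Of 185 genes at least 2-fold lower in glucose B than in glucose A, 141 were at least 1.5-fold higher on galactose C than B. GAP1 and AGP1 were among the 40 within 1.5-fold there. The share of all genes past 1.5-fold in galactose was not counted. Over all 5403 genes the median size of that difference was 0.40 on the log2 scale, under 1.5-fold, so lying within 1.5-fold is common. What set the glucose arrays apart was not tested.

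**Figure D3:**
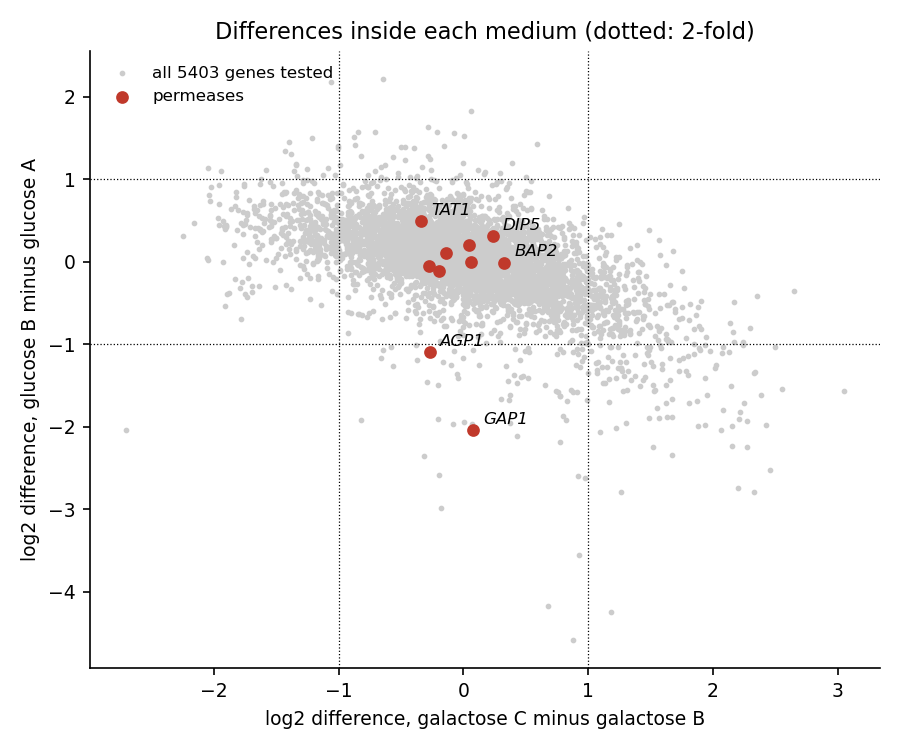
Log2 difference of galactose C minus galactose B (horizontal) against glucose B minus glucose A (vertical), for all 5403 genes tested (grey, brightest probe set per gene) and the 10 permeases (red); dotted lines mark 2-fold. The permeases lie close to 0 on the horizontal axis, and GAP1 and AGP1 lie below the lower dotted line at -2.04 and -1.10.

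The split inside glucose was also seen at 2 of the 6 other permeases of the family that were tested. With the 7 further permeases and the sensor gene SSY1, 17 of 18 listed family genes were tested, since AGP3 lay under the floor of 18.5 on all arrays. Of the 17, 4 were at least 2-fold lower in glucose B than in glucose A, where 3.27% of all probe sets were. GAP1 and AGP1 are counted among the 4, so the count in part repeats the split described above. In glucose B 0 of the 17 were higher by that much. In galactose 0 of the 17 were 2-fold apart, where 12.7% of all probe sets were. Beside GAP1 and AGP1 these were MMP1 (YLL061W), which takes up S-methylmethionine, and AGP2 (YBR132C), known for its part in carnitine and polyamine uptake, both chosen after their values were seen. MMP1 stood at 68.2 in glucose B and 181 in glucose A, with 87.3 and 84.6 on galactose B and C. AGP2 stood at 37.9 in glucose B and 82.4 in glucose A, with 34.6 and 58.3 on galactose B and C, so that its galactose arrays differed by 1.69-fold as well.

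Between the media the other family permeases were mixed, and 0 of 6 tested passed. Their median log2 difference was -0.36, with 2 apart downward and 1 upward, beside 22.1% and 17% of all probe sets. The middle values behind this median were those of ALP1 and MMP1. ALP1 lay under the floor on all arrays but glucose A, and the glucose arrays of MMP1 were 2.65-fold apart. LYP1 (YNL268W), the lysine permease, stood at 876 and 712 in galactose, against 986 and 1096 in glucose (1.32-fold lower in galactose; limma, adjusted p = 0.697). SAM3 (YPL274W), which takes up S-adenosylmethionine, stood at 70.8 and 70.6 in galactose, against 153 and 82.4 in glucose on its brightest probe set (1.59-fold lower in galactose; limma, adjusted p = 0.674). Another of its 5 probe sets pointed the other way (log2 0.15). PUT4 (YOR348C), the proline permease, was the family member apart upward. It stood at 289 and 398 in galactose, against 214 and 239 in glucose (log2 0.58, SE 0.28; limma, adjusted p = 0.633).

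Of the 10 genes of the amino acid sensor pathway, 0 passed, and 3 were apart upward and 2 downward, near the 17% and 22.1% of all probe sets. PTR2 (YKR093W), the transporter of small peptides and a target of the pathway, had the largest difference of the list. It stood at 1484 and 1560 in galactose, against 2608 and 2823 in glucose, 1.78-fold lower in galactose (log2 -0.83, SE 0.20; limma, adjusted p = 0.348). Arrays of 1 medium differed there by at most 1.08-fold. The genes of the pathway's own components differed less. STP2, which encodes 1 of the transcription factors, stood at 288 and 311 in galactose, against 256 and 224 in glucose (1.25-fold higher; limma, adjusted p = 0.762). The sensor component gene PTR3 was 1.21-fold higher in galactose, and that of the protease SSY5 was 1.18-fold lower (limma, adjusted p = 0.798 and 0.815).

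Of 8 tested genes of nitrogen catabolite repression, 0 passed, 1 was apart downward and 0 upward, beside 22.1% and 17% of all probe sets. DAL80, the ninth, was under the floor on all arrays. The 1 was URE2 (YNL229C), which keeps Gln3 in the cytoplasm. It stood at 486 and 437 in galactose, against 822 and 633 in glucose (1.56-fold lower in galactose, log2 -0.65, SE 0.25; limma, adjusted p = 0.591). The median log2 difference of the list was 0.05.

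The list of permease export and removal held genes in both directions. Of 11 tested, 6 were apart upward and 2 downward, beside 17% and 22.1% of all probe sets, with a median log2 difference of 0.27 and 0 past the threshold. ALY2 (YJL084C), an arrestin-like adaptor of the ubiquitin ligase, stood at 220 and 279 in galactose, against 110 and 202 in glucose (1.66-fold higher; limma, adjusted p = 0.663). NPR1 (YNL183C), the kinase that keeps some permeases at the membrane, stood at 1091 and 1151 in galactose, against 884 and 773 in glucose (1.36-fold higher; limma, adjusted p = 0.637). The adaptor genes ALY1 and BUL1 were 1.26-fold and 1.25-fold higher in galactose (limma, adjusted p = 0.769 for both). The 2 apart downward, named here after their values were seen, were SHR3 (YDL212W), which permeases need to leave the endoplasmic reticulum, and the adaptor gene BUL2. SHR3 stood at 756 and 827 in galactose, against 901 and 905 in glucose (log2 -0.19, SE 0.21; limma, adjusted p = 0.828). These are transcript levels, and the amount of permease at the membrane was not measured.

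The 11 tested of 12 listed transporters of amino acids outside the family, most of them vacuolar, had a median log2 difference of 0.17, with 2 apart upward, 2 downward and 0 past the threshold; the shares apart over all probe sets were 17% and 22.1%. AVT4 (YNL101W), which exports amino acids from the vacuole, stood at 251 and 192 in galactose, against 391 and 255 in glucose (1.44-fold lower in galactose; limma, adjusted p = 0.728). The methionine permease gene MUP1 was 1.20-fold lower in galactose (limma, adjusted p = 0.786). It stood at 1497 and 1398 in galactose, against 2007 and 1507 in glucose. Its glucose arrays thus differed by more (1.33-fold) than the media did. The vacuolar transporter genes VBA1 and AVT5 were 1.23-fold and 1.22-fold higher in galactose (limma, adjusted p = 0.767 and 0.770).

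**Figure D4:**
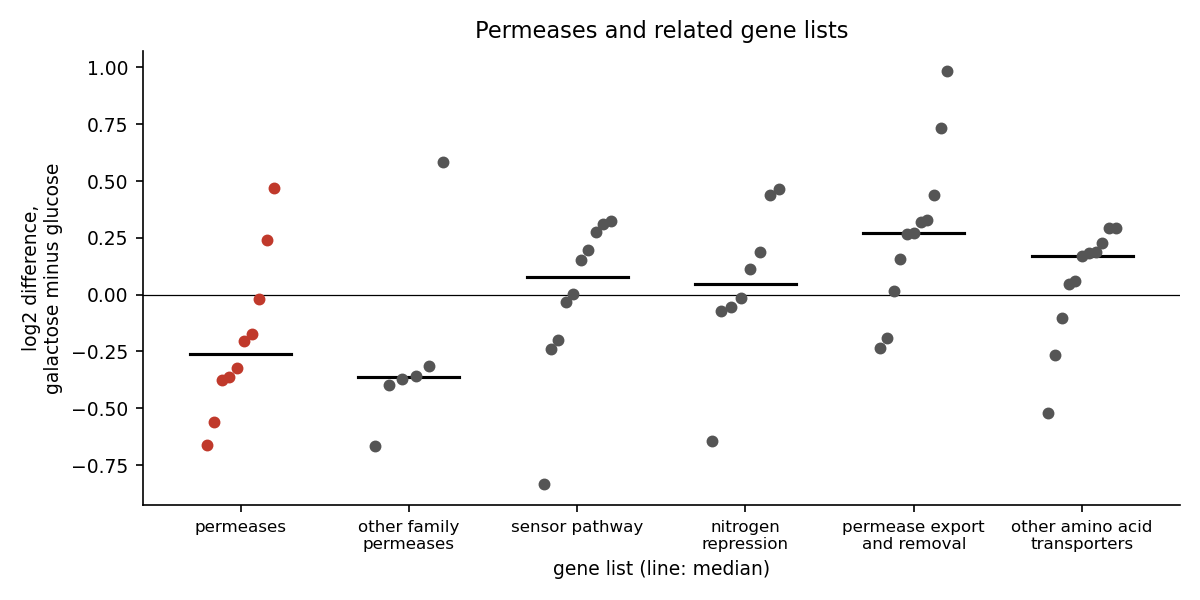
Log2 difference between the media, galactose minus glucose, for each tested gene of the permease list (red) and 5 related lists (grey), with the median of each list as a line. The permease median lies at -0.26 and the median of the export and removal genes at 0.27.

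The genes whose 4 array values most resembled those of TAT1 were sought among 5207 other genes above the floor on all arrays, by the Euclidean distance between log2 values centred on each gene's mean. The nearest were DAL1 (distance 0.06), a gene of allantoin breakdown, then SCP160 (0.07), which encodes an RNA-binding protein, and YMR209C (0.07). DAL1 stood at 107 and 88.4 in galactose, against 135 and 182 in glucose. With 4 arrays such likeness is a description only.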

How the data were processed

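The file deposited by the authors holds 1 linear intensity for each probe set on each array; the software, scaling and background treatment behind it are not given in the sources used. Array medians differed by a factor of 1.08, under the limit of 1.1, so no scaling was added. Of 9335 probe sets, 60 controls were left out. Annotation gave 1 gene for 6504 probe sets, several for 328 and none listed for 2443; all 6504 were found in the RefSeq table through their gene number. Values under the 25th percentile of pooled intensities (18.5) were set to this floor before taking log2; the 1973 probe sets at the floor throughout were set aside and 7302 tested. limma 3.58.1 in R 4.3.3 (lmFit, eBayes with trend, 2 residual and 4.73 total degrees of freedom, Benjamini-Hochberg over all 7302, threshold 0.05) compared the media, and the steps were tested on simulated data. Folds are differences of mean log2 values; means and SDs are of intensities. The brightest probe set stood for a gene in lists.

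The members and lists were chosen with earlier results of these data known. All permeases are named; from each other list, genes past the threshold are named and then up to 4 with the largest difference among those apart between the media and above the floor. Differences inside a medium compare 1 array with 1 array and have no test. Alternatives were other normalizations, floors, filters, moderation and thresholds, and each array left out. The alternative called without a floor took log2 of the value plus 18.5. Python 3.11.15, pandas 2.3.3 and matplotlib 3.10.9 prepared tables and figures.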

Additional observations from a re-analysis of the deposited data

How the results depend on the processing

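The 15 alternative settings comprised 11 that kept all arrays and others that left 1 out. No permease passed in the 11 (limma, lowest adjusted p in each from 0.553 to 0.687). In each of the 11 the count apart downward was 7, beside 21.2% to 24.5% of all probe sets tested. With 1 array left out the count was 7 to 9, but the share of all probe sets also rose, to between 32.2% and 40.6%. The median log2 difference was -0.25 with the arrays set to a common median, and from -0.32 to -0.21 with 1 array left out. The count apart upward was 0 in the 11 settings that kept all arrays, and from 0 to 2 with 1 array left out, where fewer arrays make groups separate more easily. GNP1 turned to 0.0094 with quantile normalization (adjusted p = 0.993), and with 1 array left out its log2 difference ran from -0.1179 to 0.0801, turning without galactose C and without glucose A. AGP1 ran from -0.31 to 0.79 and GAP1 from -0.55 to 1.49, both turning without glucose B (adjusted p = 0.9998 for both). With all arrays kept, GAP1, at 0.47 as reported, went to 0.151 with a floor at the 40th percentile and to 0.34 without a floor. A floor changes only values under it, and the lowest GAP1 value was 39.4, on glucose B. The setting without a floor instead added 18.5 to every value before log2, which shrinks differences most at dim values. Why GAP1 was dim on glucose B was not tested. The other 7 permeases kept their direction in all 15 settings. Over all probe sets, 58 were called higher and 3 lower in galactose; the higher calls were 26 without a floor, 32 with a floor at the 10th percentile, 25 after quantile normalization, 5 among probe sets that name 1 gene, 5 with 1 probe set per gene, 94 at a threshold of 0.1 (6 lower), and 0 without any 1 array. No paired analysis was possible because the media share only the letter B. All 10 permeases lay above the floor on every array, but GAP1 is dim on glucose B.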

Other observations

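Some genes outside the permease lists had the same arrangement of arrays as GAP1 and AGP1, and they were chosen after their values were seen. ADY2 (YCR010C), an acetate transporter gene, stood at 153 in glucose B and 1209 in glucose A, with 192 and 170 on galactose B and C. ICL1 (YER065C), which encodes isocitrate lyase of the glyoxylate cycle, stood at 838 in glucose B and 3626 in glucose A, with 1495 and 2013 on galactose B and C. CRC1 (YOR100C), a mitochondrial carnitine carrier gene, stood at 482 in glucose B and 1884 in glucose A, with 690 and 724 on galactose B and C. These genes were picked because, like GAP1 and AGP1, they were lowest on glucose B and highest on glucose A. They and the genes named below were among the 40 at least 2-fold lower in glucose B with galactose arrays within 1.5-fold. The closeness of their galactose arrays is thus set in part by that limit. Other genes lower in glucose B were arranged otherwise. PHO84 stood at 242 in glucose B and 1238 in glucose A, but at 4821 and 3862 on galactose B and C. PAU3 stood at 71.4 and 429 in glucose B and A, but at 775 and 677 on galactose B and C. How many genes had each arrangement was not counted.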
